A study of Mus musculus with 9 samples.

Results

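The AP-1 family was followed through 10 of the 15384 protein-coding genes in the count table of MyC-CaP cells, namely Fos, Fosb, Fosl1, Fosl2, Jun, Junb, Jund, Atf3, Batf3 and Maff. They were picked by symbol with earlier results of these same libraries known, so their levels and fold changes are given as a description, without p-values. MyC-CaP is an androgen-responsive line of mouse prostate cancer cells, and the data were 9 RNA libraries that the labels call biological replicates, from cells plated in triplicate wells. Cells were starved in medium without serum or calcium for 6 to 12 hours, and were harvested either at that point (time 0) or once 12 or 24 hours had passed with 100 ng/mL of recombinant mouse ASPN (asporin), a small leucine-rich proteoglycan that stromal fibroblasts secrete, with 3 libraries per time. The labels call the time 0 libraries ASPN-treated as well, and they are used here as the cells before ASPN. No library of cells kept for 12 or 24 hours without ASPN is among the 9, so the effect of ASPN and that of the hours in culture after starvation cannot be told apart.

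AP-1 is a transcription factor made of pairs of leucine zipper proteins. FOS proteins pair with JUN proteins, JUN proteins can also pair with each other, and ATF, BATF and small MAF proteins join the same network of partners, which shifts the DNA sites a pair prefers. FOS and JUN genes are classic immediate early genes, which growth factors, stress and cytokines turn on through ERK, JNK and p38 kinases before any new protein is made, and several of the proteins are short-lived. In prostate cancer cells, AP-1 has been studied for its part in growth, stress responses and the control of inflammatory genes.

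The promoters of 5 members are shown first. RefSeq start sites on GRCm38.p6 gave a window of 300 bases (250 before the start and 50 after it) for 9 of the 10 members (all but Fosl1), 11 windows in all because Maff has 3 starts. The windows were searched on both strands for the AP-1 site TGANTCA, the cyclic AMP response element (CRE) TGACGTCA, its core TGACG, the CArG box that SRF binds and an NF-kB site, and on the coding strand for TATAAA. Every CRE holds the core on each strand, so these matches overlap. A CRE core was present in 6 of the 11 windows, belonging to 5 members, and in 20.8% of all 32851 RefSeq windows of the same length. The 200 bases before the start are printed 5′ to 3′ for the members that share this motif (Fos, Fosb, Junb, Atf3 and Maff), to show where it lies. Capitals mark the core, the full CRE in Maff and the TATAAA of Fos. The stretches are chr12:85473690-85473889 (plus strand) for Fos, chr7:19310046-19310245 (minus strand) for Fosb, chr8:84978749-84978948 (minus strand) for Junb, chr1:191183334-191183533 (minus strand) for Atf3 and chr15:79347320-79347519 (plus strand) for Maff.
Fos: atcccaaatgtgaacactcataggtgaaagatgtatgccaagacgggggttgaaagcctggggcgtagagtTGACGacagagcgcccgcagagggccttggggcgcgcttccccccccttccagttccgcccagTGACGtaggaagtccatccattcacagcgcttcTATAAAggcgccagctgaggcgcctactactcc
Fosb: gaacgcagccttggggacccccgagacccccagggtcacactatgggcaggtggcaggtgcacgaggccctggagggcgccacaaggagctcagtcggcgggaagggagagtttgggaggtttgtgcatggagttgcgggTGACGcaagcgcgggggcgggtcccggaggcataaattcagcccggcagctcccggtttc
Junb: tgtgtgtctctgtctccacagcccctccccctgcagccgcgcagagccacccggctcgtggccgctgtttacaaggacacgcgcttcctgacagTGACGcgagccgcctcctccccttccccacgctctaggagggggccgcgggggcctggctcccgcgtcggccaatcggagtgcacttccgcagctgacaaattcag
Atf3: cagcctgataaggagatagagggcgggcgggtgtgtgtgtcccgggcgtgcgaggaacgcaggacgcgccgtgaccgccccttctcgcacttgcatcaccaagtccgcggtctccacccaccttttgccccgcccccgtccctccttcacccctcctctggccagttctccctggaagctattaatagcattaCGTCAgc
Maff: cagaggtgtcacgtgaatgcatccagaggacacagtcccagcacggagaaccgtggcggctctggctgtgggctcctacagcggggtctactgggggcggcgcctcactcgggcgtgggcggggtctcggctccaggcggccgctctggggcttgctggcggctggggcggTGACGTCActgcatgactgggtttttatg

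Counted from the start site, the CRE cores began at positions -129 and -66 in Fos, -60 in Fosb, -106 in Junb and -7 in Atf3. The full CRE was found in 1 member, Maff, at position -29 of its second start, and in 1.79% of all windows. The third window of Maff held a CRE core at position -122. TATAAA lay at position -33 in Fos and at position 0 in Junb, past the end of the printed stretch, and in 8.32% of all windows. None of the 11 windows searched held the AP-1 site in the form TGANTCA (7.81% of all windows) or the CArG box (1.63%), and 4 members had an NF-kB match (4.51%). Longer variants of the AP-1 site were not searched, such as TGACATCA, which is present in the Jun window. Sites more than 250 bases before a start lay outside the windows, so nothing is shown about them. These are matches of letters only, and no binding was measured. The Atf3 start used by RefSeq lies 34706 bases inside the gene span of the count table, and that of Jund lies 1210 bases from the gene start in the table. The RefSeq start of Junb lies 30 bases before its gene start in the table, so its TATAAA lies upstream of that gene start.

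The library totals were 41881191 to 52993821 counts (median 44779129). Levels are given as CPM, counts relative to the library total after scaling with TMM factors. These factors ranged from 1.04 to 1.07 in the libraries of time 0 and 12 hours and from 0.898 to 0.911 in those of 24 hours. All 9 pairs of libraries within a time differed beyond the noise of sampling (chi-square per degree of freedom of 3.41 to 17.5), and every library was kept as 1 replicate. The labels call the cells epithelial-like. Krt8 and Krt19, keratins of luminal cells, were at 24.8 to 42.3 and 79.3 to 145 CPM, whereas Krt18, the usual partner of Krt8, was at 0.0437 to 0.490 CPM and was called higher from 12 to 24 hours (log2 fold change 1.72 ± 0.52, SE). That call rests on 2, 6 and 9 counts of Krt18 at 12 hours. Krt18 passed the filter on low counts only in comparisons with 24 hours, and was not called at 24 hours against time 0 (0.81 ± 0.41, edgeR adjusted p = 0.097). Epcam and Cdh1, which define epithelium, reached at most 0.0207 and 0.211 CPM, so these markers were close to absent. Of the other cell types, the summed levels of the listed markers were 0.249 to 0.793 CPM (immune, 2 genes), 0.0207 to 0.124 CPM (endothelial, 2 genes), 0.0857 to 0.907 CPM (basal, 3 genes) and 9.12 to 14.1 CPM (fibroblast, 3 genes, almost all of it Pdgfra). At 24 hours Krt19 (log2 fold change 0.64 ± 0.084, SE), Krt14 (0.423 to 0.588 CPM) and Dcn (0.190 to 0.602 CPM) were called higher. Krt14 had 3, 1 and 2 counts at time 0. Dcn had 11, 7 and 9 counts at time 0 and 19, 29 and 9 at 24 hours, and its levels at these times overlapped. Krt14 and Dcn passed the filter on low counts only in comparisons with the libraries of 24 hours, so nothing is read from their calls. The fibroblast sum was lower then, at 9.12 to 10.3 CPM against 12.9 to 14.1 CPM at time 0, and its abundant gene Pdgfra had a log2 fold change of -0.51 ± 0.085 (SE, edgeR adjusted p = 0.00013), short of the 1.5-fold rule. The part of these markers in the results was not tested. In bulk RNA, fewer cells of a type and less RNA per cell cannot be told apart.

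All 10 members passed the filter on low counts in each comparison. Fosb and Batf3 were sparse, with 44 to 294 and 18 to 48 counts in a library, whereas the other 8 members had 849 to 23072 counts. Gene positions are on GRCm38. A gene was called between 2 times when its adjusted p in edgeR was at most 0.05 and its fold at least 1.5.

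**Figure D1:**
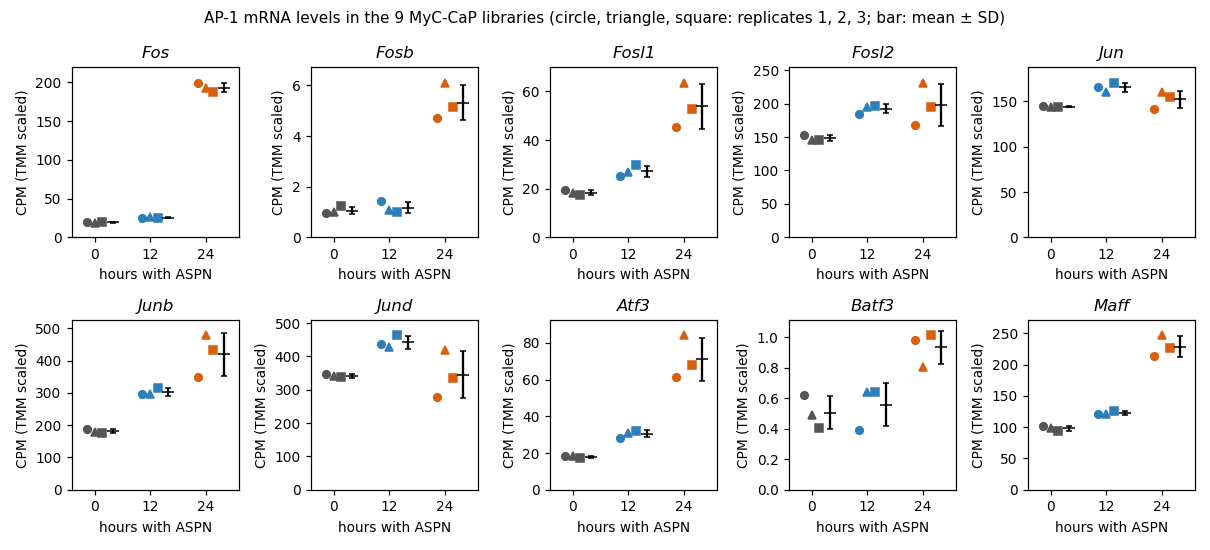
TMM-scaled CPM (vertical axes, each starting at 0) of the 10 members in each library against hours with ASPN, with circles, triangles and squares for replicates 1, 2 and 3 and a bar for the mean ± SD (n = 3). Fos stayed between 18.9 and 26.1 CPM through 12 hours and lay between 188 and 199 CPM at 24 hours, while Jun stayed between 142 and 171 CPM throughout.

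Fos (ENSMUSG00000021250.13, chr12:85473890-85477273, plus strand, 4 exons) encodes c-FOS, the best known immediate early factor. It was at 20.3, 18.9 and 19.5 CPM in the time 0 libraries, at 25.1, 26.1 and 24.8 CPM at 12 hours and at 199, 192 and 188 CPM at 24 hours. The 3 times did not overlap, and nearly all of the difference lay between 12 and 24 hours. The log2 fold change against time 0 was 0.38 ± 0.054 (SE) at 12 hours and 3.31 ± 0.048 at 24 hours, a fold of 9.89. Between 12 and 24 hours it was 2.95 ± 0.043. Fos stood above 99.8% of all tested genes by its log2 fold change at 24 hours.

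Fosb (ENSMUSG00000003545.3, chr7:19302696-19310051, minus strand) is a close relative of Fos with a transactivation domain of its own. Its levels were 0.954, 0.986 and 1.23 CPM at time 0, 1.42, 1.10 and 1.01 CPM at 12 hours and 4.73, 6.10 and 5.14 CPM at 24 hours. Time 0 and 12 hours overlapped, and each library of 24 hours was above both. Its log2 fold change was 0.15 ± 0.22 at 12 hours, changing sign to -0.0090 without replicate 1 of 12 hours, and 2.33 ± 0.17 at 24 hours. As for Fos, most of the difference lay after 12 hours.

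Fosl1 (ENSMUSG00000024912.6, chr19:5447547-5455946, plus strand) encodes FRA-1, which lacks the transactivation domain of c-FOS. It was at 19.6, 18.2 and 17.5 CPM at time 0, at 25.1, 26.7 and 29.7 CPM at 12 hours and at 45.3, 63.5 and 52.7 CPM at 24 hours. The 3 times were fully separated, and the level was higher at each step. The log2 fold change was 0.56 ± 0.067 at 12 hours, just under the 1.5-fold call rule, and 1.55 ± 0.10 at 24 hours. It was called at 12 hours with offsets for transcript length and GC content (0.59), without replicate 1 of time 0 (0.61) and without replicate 1 of 12 hours (0.62). Its exons share 1163 bp with those of Ccdc85b on the other strand, and whether the counting used strand is not given in the sources used here. Ccdc85b was at 112 ± 3.66 (SD, n = 3), 122 ± 5.64 and 151 ± 14.3 CPM at the 3 times.

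Fosl2 (ENSMUSG00000029135.10, chr5:32135801-32157842, plus strand) encodes FRA-2. It was at 153, 146 and 146 CPM at time 0, at 184, 196 and 197 CPM at 12 hours and at 168, 231 and 195 CPM at 24 hours. Every library of 12 and of 24 hours was above time 0, and 12 and 24 hours overlapped. For Fosl2 the log2 fold change was 0.38 ± 0.036 at 12 hours and 0.42 ± 0.084 at 24 hours, neither of which was called. With these length and GC offsets, a correction fitted per library, the value at 24 hours was 0.88 and was called, and with total counts as the scaling it was 0.20. Fosl2 has the longest transcript among the members, of 6537 bases. Its 24 to 12 hour difference was 0.06 ± 0.082 and ran from -0.16 with total counts to 0.51 with the length and GC correction, and it was also below 0 (-0.07) without replicate 2 of 24 hours.

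Jun (ENSMUSG00000052684.4, chr4:95049034-95052222, minus strand, a single exon) encodes c-JUN, the JUN protein that JNK phosphorylates most readily. It was at 145, 144 and 144 CPM at time 0, at 167, 161 and 171 CPM at 12 hours and at 142, 160 and 155 CPM at 24 hours. The libraries of 12 hours were above those of time 0, while those of 24 hours overlapped time 0. Jun had a log2 fold change of 0.20 ± 0.033 at 12 hours and of 0.08 ± 0.047 at 24 hours, and the latter became -0.14 with total counts. Jun was the member with the smallest range over the 9 libraries relative to its level. It shares 232 bp of exon with the antisense gene Junos.

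Junb (ENSMUSG00000052837.6, chr8:84974484-84978718, minus strand, a single exon) encodes a JUN protein that is a weaker activator than c-JUN at many sites. It was at 190, 180 and 176 CPM at time 0, at 297, 296 and 316 CPM at 12 hours and at 348, 479 and 432 CPM at 24 hours. The 3 times were separated, with 12 hours already well above time 0. Junb had a log2 fold change of 0.74 ± 0.038 at 12 hours and of 1.21 ± 0.087 at 24 hours, and both were called. The later step, 12 to 24 hours, was 0.49 ± 0.083, not called, and 0.61 and called without replicate 1 of 24 hours. Its exons share 173 bp with Prdx2 on the other strand, which was at 310 ± 8.29, 308 ± 7.78 and 431 ± 10.3 CPM (SD, n = 3).

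Jund (ENSMUSG00000071076.6, chr8:70698949-70700616, plus strand, a single exon) encodes the JUN protein that resting cells usually hold in the largest amount. It was at 348, 340 and 338 CPM at time 0, at 437, 427 and 463 CPM at 12 hours and at 278, 418 and 337 CPM at 24 hours. It was above time 0 in every library of 12 hours and below 12 hours in every library of 24 hours, where the spread was widest. For Jund the log2 fold change was 0.37 ± 0.035 at 12 hours, 0.01 ± 0.10 at 24 hours and -0.34 ± 0.10 from 12 to 24 hours, and none was called. The sign of the value at 24 hours depended on replicate 2 of that time (-0.15 without it) and on the scaling (-0.21 with total counts). Jund shares 877 bp of exon with the antisense gene Gm11175.

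Atf3 (ENSMUSG00000026628.13, chr1:191170296-191218039, minus strand) encodes a stress-induced factor that often represses its targets. It was at 18.3, 18.2 and 17.2 CPM at time 0, at 28.5, 31.0 and 32.1 CPM at 12 hours and at 61.5, 84.1 and 67.8 CPM at 24 hours. The 3 times were separated and the level was higher at each step. The log2 fold change was 0.77 ± 0.058 at 12 hours and 1.99 ± 0.096 at 24 hours, a fold of 3.98, and both were called. Atf3 and Junb were the members called at 12 hours.

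Batf3 (ENSMUSG00000026630.9, chr1:191097847-191108945, plus strand), near Atf3 on the chromosome, encodes a partner of JUN proteins known from dendritic cells. It had 30, 23 and 22 counts at time 0, 18, 30 and 28 counts at 12 hours and 40, 39 and 48 counts at 24 hours, or 0.394 to 1.01 CPM. Time 0 and 12 hours overlapped, and 24 hours was above both. For Batf3 the log2 fold change was 0.15 ± 0.31 at 12 hours and 0.89 ± 0.29 at 24 hours. The call at 24 hours was lost with total counts (0.67), with the length and GC correction plus replicate block (0.75) and without replicate 3 of time 0 (0.75). The call between 12 and 24 hours (0.75 ± 0.29) was lost in 4 of 12 alternatives, DESeq2 among them, and without replicate 1 of 12 hours (0.55), replicate 1 of 24 hours (0.72) or replicate 3 of 24 hours (0.69).

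Maff (ENSMUSG00000042622.14, chr15:79346621-79359076, plus strand) encodes a small MAF protein, which has no transactivation domain and pairs with CNC and some FOS proteins. It was at 102, 99.3 and 94.2 CPM at time 0, at 121, 121 and 127 CPM at 12 hours and at 214, 247 and 226 CPM at 24 hours. The 3 times did not overlap. The log2 fold change was 0.32 ± 0.037 at 12 hours, 1.22 ± 0.054 at 24 hours and 0.92 ± 0.049 between them.

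**Figure D2:**
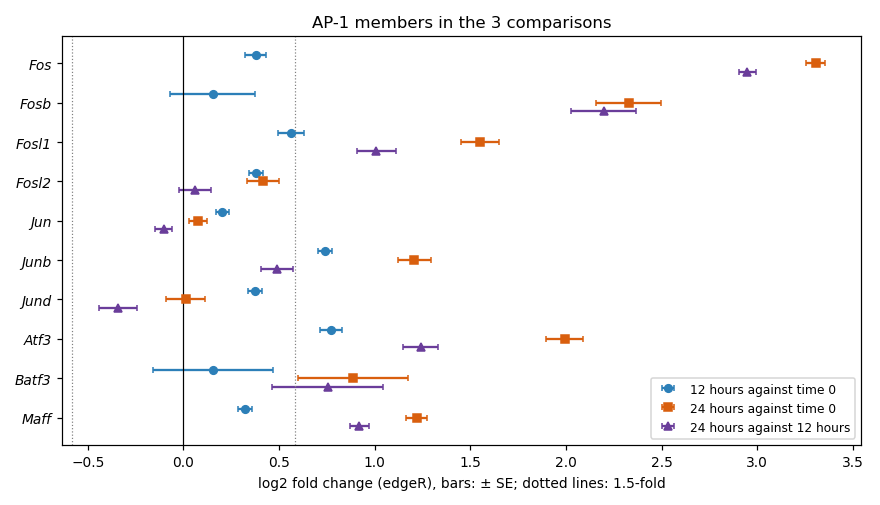
Log2 fold change of each member (horizontal axis, edgeR, bars ± SE) for 12 hours against time 0 (circles), 24 hours against time 0 (squares) and 24 against 12 hours (triangles), with dotted lines at 1.5-fold. Fos had the highest value at 24 hours (3.31), and Jun (0.08) and Jund (0.01) lay near 0.

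Counted together, 10 of 10 members had a positive log2 fold change at 12 hours, with a median of 0.38 against -0.00487 for all tested genes. The libraries of 12 hours lay wholly above time 0 for 8 members, against 13.7% of all tested genes, and 2 members were called higher, against 1.5%. At 24 hours the median was 1.21 against -0.02, 8 members lay wholly above time 0 (35.9% of all tested genes) and 7 were called higher (12%). From 12 to 24 hours the median was 0.84 against 0.00386, 7 members lay wholly above (35.8%), Jun and Jund lay wholly below (38.1%), and 6 were called higher (10.4%). Since the members were picked with these contrasts known, nothing is read from these counts against the background. The comparisons share libraries with each other, those of time 0, 12 hours or 24 hours, and are set side by side only. With total counts as the scaling the median of all tested genes itself shifted to -0.24 at 24 hours and -0.22 from 12 to 24 hours, and the calls over all genes split into 698 higher and 3008 lower at 24 hours, against 1374 and 1924 with TMM. With the length and GC correction the split was 1318 and 1540.

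Levels of different genes were compared per kilobase of annotated exon. At time 0 the order was Jund at 205 ± 3.27 CPM per kb (SD, n = 3), Junb at 79.1 ± 3.08, Jun at 45.3 ± 0.135, Maff at 37.9 ± 1.46 and Fosl2 at 15.3 ± 0.444. The places of Jun and Maff depended on the length taken for each gene, since with the longest transcript in place of all exons Maff was above Jun in each of the 3 libraries (48.1 to 51.9 against 45.2 to 45.4 CPM per kb), as it was at 12 hours. Fosl1 (9.06 ± 0.535), Atf3 (8.32 ± 0.286) and Fos (8.31 ± 0.296) followed. The libraries of Fos overlapped those of Atf3 and of Fosl1, while the 3 values of Fosl1 lay just above those of Atf3. Batf3 (0.317 ± 0.069) and Fosb (0.169 ± 0.0239) came last. Fos was at the 69.7th percentile of the genes in the table at time 0. At 24 hours the ranges of Jund (206 ± 42.2) and Junb (182 ± 28.8) over the libraries overlapped, with Jund above Junb within each of the 3 libraries. With the longest transcript Junb was the higher in all 3 (192 and 167, 265 and 251, and 239 and 202 CPM per kb for Junb and Jund in replicates 1 to 3), so the order of this pair is not settled. Maff (88.3 ± 6.45) and Fos (82.2 ± 2.43) came next with overlapping ranges, Maff being the higher in 2 of 3 libraries (3 of 3 with the longest transcript), and Fos was then at the 96.4th percentile. Jun (47.8 ± 2.98), Atf3 (33.0 ± 5.41), Fosl1 (26.5 ± 4.52) and Fosl2 (20.5 ± 3.27) stood below them, with Fosb (0.852 ± 0.113) and Batf3 (0.585 ± 0.069) still last. The ranges of Atf3 and Fosl1 overlapped, as did those of Fosl1 and Fosl2. Atf3 was above Fosl1 in each of the 3 libraries with either length, whereas Fosl1 was above Fosl2 in all 3 with all exons and in 0 of 3 with the longest transcript (24.3 to 34.1 against 25.7 to 35.4 CPM per kb).

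The make-up of the FOS subfamily differed between times. The summed level of the 4 FOS genes was 32.9 ± 1.21 CPM per kb at time 0, 44.2 ± 1.74 at 12 hours and 129.9 ± 6.86 at 24 hours. Fosl2 held the greatest share at time 0 (46.6% ± 0.354) and 12 hours (44.96% ± 0.351), and 15.7% ± 1.73 at 24 hours. Fos held 25.3% ± 0.43, 24.4% ± 1.16 and 63.4% ± 4.23, ranging from 59.3% to 67.7% over the libraries of 24 hours. Fosl1 went from 27.6% ± 0.721 and 30.2% ± 1.55 to 20.3% ± 2.45, although its own level was highest at 24 hours. Fosb never reached 1% of the sum.

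Within the JUN genes, the sum was 329 ± 6.47, 449 ± 17.5 and 436.5 ± 73.3 CPM per kb. Jund held 62.2% ± 0.229, 59.1% ± 0.227 and 47.1% ± 1.87, and Junb held 24.0% ± 0.461, 29.3% ± 0.248 and 41.8% ± 1.00, at time 0, 12 and 24 hours. Jun held 13.8% ± 0.232, 11.6% ± 0.187 and 11.1% ± 1.20. The ratio of the JUN sum to the FOS sum was 9.83 to 10.1 over the libraries of time 0 and 9.75 to 10.5 over those of 12 hours, while the libraries of 24 hours gave 2.90 to 3.69. The shares depend on the length taken for each gene. With the longest transcript in place of all exons, 18 of the 21 values moved by more than 1 SD, for example to 22.0% for Fos, 53.9% for Fosl2 and 28.7% for Junb at time 0 and to 47.8% for Junb and 42.3% for Jund at 24 hours. These are mRNA levels, and protein was not measured in these libraries.

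**Figure D3:**
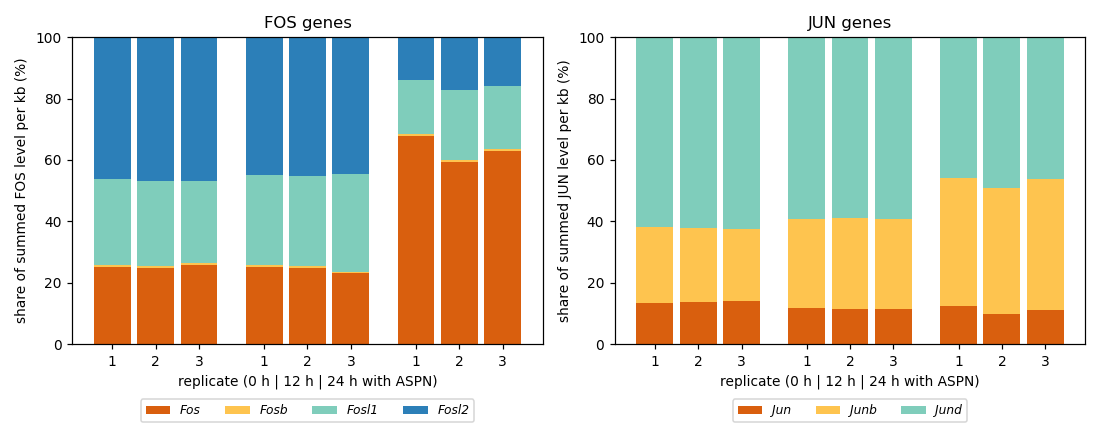
Share of each gene in the summed CPM per kb (vertical axis, %) of the FOS genes (left) and JUN genes (right), 1 bar per library, grouped as time 0, 12 and 24 hours with ASPN. Fos took 59.3% to 67.7% of the FOS sum at 24 hours and 23.1% to 25.8% before, and Junb took 40.9% to 42.9% of the JUN sum at 24 hours.

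Of the 8 well-counted members, all but Fos varied more over the libraries of 24 hours than over those of either earlier time. The sparse Fosb and Batf3 varied least at 24 hours. For the 8 well-counted members the coefficient of variation over 3 libraries lay between 0.288% and 5.91% at time 0. The values ranged between 2.68% and 8.68% for 12 hours and between 2.94% (Fos) and 20.5% (Jund) for 24 hours. At 24 hours, 8 members (Fosb, Fosl1, Fosl2, Jun, Junb, Jund, Atf3 and Maff) were lowest in replicate 1 and highest in replicate 2, whereas Fos was highest in replicate 1. Deviations over all genes were related to the GC content of the transcripts in these replicates. Over genes, the deviation of replicate 1 from the mean of 24 hours had a Spearman correlation with GC content of -0.306 and that of replicate 2 one of 0.266, against -0.0825 to 0.128 in the other 7 libraries. All 10 members were above the median GC content of the genes in the table, from 51.9% (Fos) to 67.15% (Jund). Atf3 (52.22%) followed the order of the replicates and Fos did not, while Batf3 (60.72%) was lowest in replicate 2. The part of GC content in the order of the replicates was not tested.

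**Figure D4:**
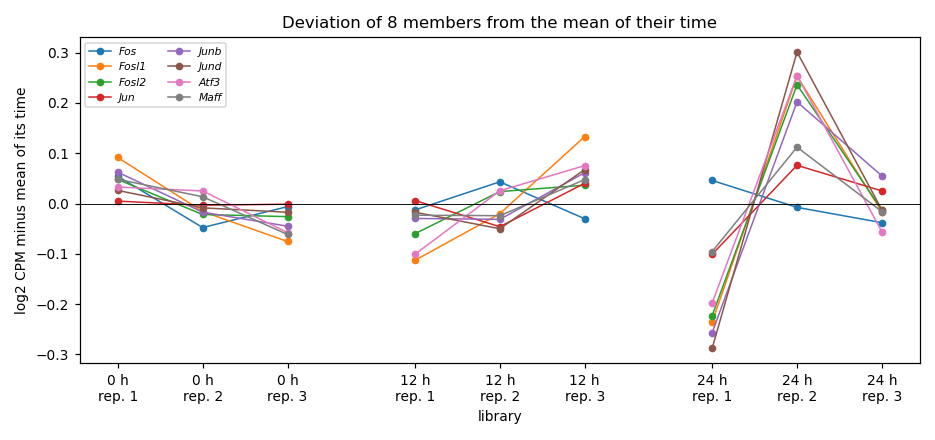
Deviation of the log2 CPM of 8 members from the mean of their time (vertical axis) in each of the 9 libraries (horizontal axis), 1 line per member. At 24 hours, 7 of the 8 lines run from the lowest value in replicate 1 to the highest in replicate 2, and the line of Fos does not.

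Genes of 6 lists around AP-1 were read from edgeR's quasi-likelihood fits of all genes, with adjustment after Benjamini and Hochberg over all tested genes. The lists were chosen with earlier results of these data known, so their p-values describe the fits and are not independent tests. Over all tested genes, 0.0964% were called lower at 12 hours, 16.8% at 24 hours and 15.3% from 12 to 24 hours. The shares called higher are given above. For some lists, genes are also counted by unadjusted p at 12 hours. The share of all tested genes under the same limit is not given here, so nothing is read from those counts. Without the fold rule, the adjusted p alone was passed by 1178 of the 11410 genes tested at 12 hours.

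Partner genes that can pair with members were read from a list of 11 other AP-1, ATF and MAF genes, of which 7 were tested. At 12 hours none of the 7 was called by edgeR, DESeq2 or limma-voom, while 3 had an unadjusted p under 0.05. Of these, Jdp2, a JUN dimerization partner (log2 fold change 0.35 ± 0.058, edgeR adjusted p = 0.00054), and Mafg, a small MAF gene like Maff (0.22 ± 0.036, edgeR adjusted p = 0.00038), passed the threshold on adjusted p and missed only the 1.5-fold rule. At 24 hours 1 was lower, Mafa (-0.72 ± 0.19, edgeR adjusted p = 0.0045), a large MAF factor present at 1.72 to 4.35 CPM. From 12 to 24 hours 1 was lower, Mafg (-0.59 ± 0.044, edgeR adjusted p = 5.6e-08). Neither call was kept with the length and GC correction. That of Mafa was also lost without replicate 2 of 24 hours, and that of Mafg with upper-quartile factors and without replicate 1 of 12 hours or replicate 1 or 3 of 24 hours. The median log2 fold change of the list was 0.05 at 12 hours and -0.11 at 24 hours, beside 1.21 for the members at 24 hours.

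In the JNK pathway, which phosphorylates JUN proteins, 14 of 15 listed genes were tested. At 12 hours 2 genes were called, both higher, the phosphatases Dusp8 (1.37 ± 0.057, edgeR adjusted p = 2.6e-11) and Dusp10 (0.86 ± 0.081, edgeR adjusted p = 9.9e-07). The listed phosphatases Dusp1 (0.47 ± 0.055, edgeR adjusted p = 1.4e-05) and Dusp16 (0.42 ± 0.050, edgeR adjusted p = 1.7e-05) missed only the 1.5-fold rule. So did the kinase Map3k5, which was lower (-0.23 ± 0.042, edgeR adjusted p = 0.0013). At 24 hours 4 genes rose and 1 fell. Dusp1, an immediate early phosphatase of JNK and p38, was at 30.7 ± 2.04, 42.3 ± 2.61 and 152.6 ± 10.5 CPM (SD, n = 3) at time 0, 12 and 24 hours. Its log2 fold change at 24 hours was 2.31 ± 0.062 (edgeR adjusted p = 8.1e-12). Dusp10 (0.93 ± 0.087) and Dusp8 (0.86 ± 0.12) rose too, as did the kinase Mapk8, which encodes JNK1 (0.76 ± 0.053, edgeR adjusted p = 2.7e-08; not called with total counts). Map3k5, the stress kinase ASK1, fell (-1.02 ± 0.068, edgeR adjusted p = 1.9e-08). Between 12 and 24 hours Dusp1 (1.87 ± 0.057) and Mapk8 (0.72 ± 0.050) were higher and Map3k5 lower (-0.77 ± 0.068). Of these 3, only Dusp1 was still called with the length and GC correction, where Mapk8 was at 0.58, just under the 1.5-fold rule, and Map3k5 at -0.53. With total counts Mapk8 was at 0.49 and was not called. The list's median was 0.05 at 12 hours and 0.06 at 24 hours.

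SRF and its partners drive the serum response element of Fos and other immediate early genes. None of the 6 was called at 12 hours by edgeR, DESeq2 or limma-voom, while 3 had an unadjusted p under 0.05. Among them Srf (0.33 ± 0.051, edgeR adjusted p = 0.00027) missed only the 1.5-fold rule. At 24 hours 3 fell in edgeR's quasi-likelihood test, the coactivators Mrtfa (-0.71 ± 0.067, adjusted p = 5.1e-07) and Mrtfb (-0.63 ± 0.062, adjusted p = 8.2e-07) and the ETS factor Elk3 (-0.63 ± 0.14, adjusted p = 0.0012). This count was 0 with the length and GC correction, where Elk3 was at -0.53, Mrtfa at -0.32 and Mrtfb at -0.29, and 5 with total counts. Elk3 was also lost without replicate 3 of time 0 or replicate 1 of 24 hours, and Mrtfb without replicate 1 of time 0 or replicate 3 of 24 hours. Between 12 and 24 hours Mrtfa (-0.79 ± 0.064), Mrtfb (-0.71 ± 0.059) and Elk3 (-0.61 ± 0.11) were again lower, and none was called with that correction (-0.42, -0.38 and -0.52), nor Elk3 without replicate 3 of 12 hours or replicate 1 or 3 of 24 hours. Srf itself was at 38.3 ± 1.07, 47.9 ± 3.60 and 44.6 ± 12.0 CPM (SD, n = 3).

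Ligases and cofactors of AP-1 made a list of 9 genes. At 12 hours none was called by edgeR, DESeq2 or limma-voom, and 1 had an unadjusted p under 0.05, Ncoa1, a coactivator (-0.14 ± 0.040, edgeR adjusted p = 0.034), which missed only the 1.5-fold rule. At 24 hours 3 fell and 1 rose. Fbxw7, the ubiquitin ligase subunit that marks c-JUN for breakdown, went from 64.5 ± 0.64 and 63.9 ± 4.14 to 16.7 ± 0.475 CPM (SD, n = 3), a log2 fold change of -1.95 ± 0.051 (edgeR adjusted p = 6.9e-12). The acetyltransferases and coactivators Ep300 (-1.23 ± 0.048, edgeR adjusted p = 2.2e-10) and Crebbp (-1.02 ± 0.051, edgeR adjusted p = 1.5e-09) also fell. With the length and GC correction Fbxw7 was at -1.91 and Ep300 at -0.86, both called, and Crebbp at -0.58, not called. Cop1, another ligase for JUN, rose (0.62 ± 0.045, edgeR adjusted p = 4.1e-08), a call that was lost with total counts and with that correction. From 12 to 24 hours Fbxw7 (-1.92 ± 0.058), Ep300 (-1.19 ± 0.045) and Crebbp (-0.96 ± 0.051) fell, and Cops5 (0.59 ± 0.040) and Cop1 (0.59 ± 0.043) rose. The fall of Crebbp was not called with the length and GC correction (-0.54). Both rises were lost with total counts, with the correction and in the fit of all 9 libraries. Cop1 was also lost with at least 10 counts required in every library and without replicate 1 of 12 or of 24 hours, and Cops5 without replicate 1 or 3 of 12 hours or replicate 2 of 24 hours.

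Immediate early genes outside AP-1 were counted in a list of 9, of which 8 were tested. At 12 hours Ier5 (0.68 ± 0.050, edgeR adjusted p = 4.8e-08) and Egr2 (1.25 ± 0.36, edgeR adjusted p = 0.033) rose, and the call of Egr2 was lost in 3 of the 10 alternatives that tested it and without replicate 1 or 3 of time 0 or replicate 1 or 2 of 12 hours. At 24 hours 5 rose and 1 fell. Egr1, a zinc finger factor often induced with Fos, was at 6.16, 7.29 and 7.57 CPM at time 0, at 9.40, 11.1 and 10.4 CPM at 12 hours and at 152, 141 and 135 CPM at 24 hours. Like Fos, it was highest in replicate 1 of 24 hours, and most of its difference lay between 12 and 24 hours. Its log2 fold change at 24 hours was 4.35 ± 0.074 (edgeR adjusted p = 1.6e-13). Egr2 (2.16 ± 0.36) and the nuclear receptor Nr4a1 (1.12 ± 0.10) followed, and Nr4a2 fell (-0.68 ± 0.15, edgeR adjusted p = 0.001), a call lost without replicate 2 of time 0. Between 12 and 24 hours Egr1 (3.81 ± 0.065), Nr4a1 (1.09 ± 0.084) and Egr2 (0.93 ± 0.29) were higher, and Ier5 (-0.74 ± 0.063) and Nr4a2 (-0.63 ± 0.14) lower. Here Egr2 was lost without replicate 3 of 12 hours or replicate 1 of 24 hours, and Nr4a2 without replicate 2 of 12 hours or replicate 1 of 24 hours. The list's median was 0.55 at 12 hours and 0.86 at 24 hours.

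Textbook genes with AP-1 sites made a list of 18, of which 10 were tested. At 12 hours 1 rose, Lif, a cytokine of the IL-6 family, from 9.58 ± 0.389 to 36.8 ± 2.89 CPM (SD, n = 3), a log2 fold change of 1.94 ± 0.066 (edgeR adjusted p = 1.8e-12). At 24 hours 8 of the 10 rose and none fell. The largest were Lif (1.59 ± 0.11, edgeR adjusted p = 3.6e-08), the heme oxygenase Hmox1 (1.47 ± 0.13, edgeR adjusted p = 2.2e-07) and Hbegf, an EGF receptor ligand (1.26 ± 0.090, edgeR adjusted p = 4.1e-08). The count was 5 with total counts and 6 with the length and GC correction. From 12 to 24 hours 6 rose, among them Hmox1 (1.24 ± 0.11), Cd44 (0.87 ± 0.062), which encodes a hyaluronan receptor, and Hbegf (0.85 ± 0.093), and 3 to 6 of them rose over 11 alternatives. The medians were 0.33 at 12 hours and 0.89 at 24 hours. Many other factors act on these genes as well, and AP-1 binding was not measured.

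**Figure D5:**
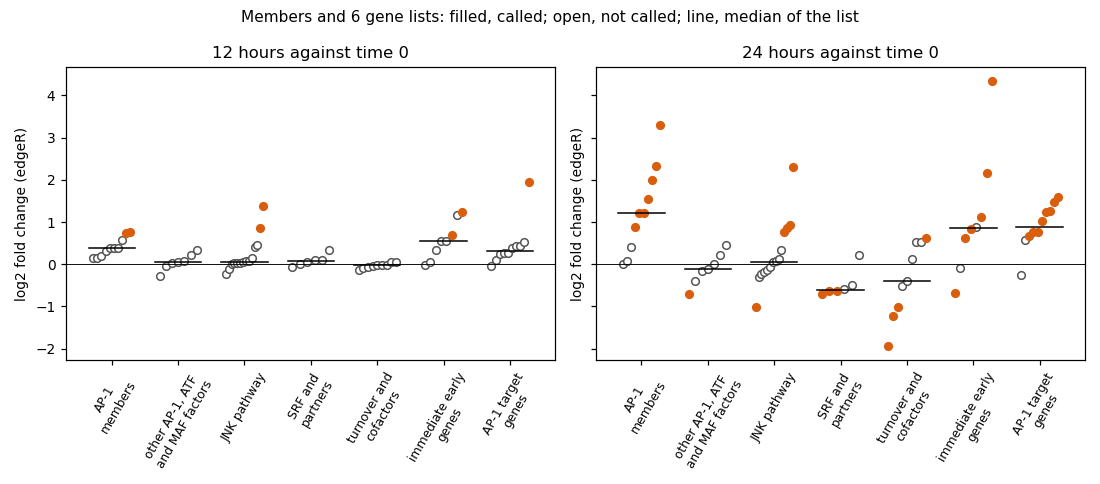
Log2 fold change (vertical axis, edgeR) of the members and of the genes in 6 lists (horizontal axis) at 12 hours (left) and 24 hours (right) against time 0, filled where called and open where not, with a line at each median. At 24 hours Egr1 (4.35) and Fos (3.31) lay highest and Fbxw7 (-1.95) lowest.

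The genes whose log2 CPM followed each member most closely were sought among 10356 other genes (10357 for Batf3) with a mean of at least 50 counts, by Pearson's r over the 9 libraries. The points fall into 3 times and share their libraries, so r mainly describes a like order of the times and carries no test. Fos was closest to Serpinb6b and Slc25a30 (both 0.999), Fosb to Cnih1 and Cfl1 (both 0.994), and Maff to Abcc1 and Pvr (both 0.998). Fosl1 was closest to another member, Atf3 (0.996), and to Epha2 (0.995), and Atf3 to Arl6ip5 (0.998) and Spidr (0.997). Junb was closest to Tapbp (0.995) and Btg1 (0.994) and Fosl2 to Mtmr14 (0.977) and Ddr1 (0.971). Jund was closest to Bcar1 (0.97) and Src (0.968), Jun to Cntnap1 (0.969) and Tent5b (0.967), and the sparse Batf3 to Fam114a1 (0.973) and Clybl (0.971). Over the 45 pairs of members r ran from -0.339 (Fos and Jund) to 0.996 (Fosl1 and Atf3).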

How the data were processed

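RNA-Seq of 9 MyC-CaP libraries was used. The authors aligned paired-end TruSeq mRNA reads with STAR to GRCm38 and used featureCounts to count reads on genes, and the deposited table gives raw counts for 15384 protein-coding genes, without normalization. Gene lengths, GC content and overlaps were taken from GENCODE M21, which matched 99.9% of the genes. Groups follow the time given in the labels. The members, lists and tests were chosen with earlier results of these data known. In R 4.3.3, genes were filtered with filterByExpr and scaled with TMM within each pair of times, and tested with the quasi-likelihood test of edgeR 4.0.16. A gene was called at a p-value of at most 0.05, adjusted with the Benjamini-Hochberg method over all tested genes, and at least a 1.5-fold difference. P-values measure the spread between the 3 libraries per time. A floor of 3 counts corresponds to 0.0566 to 0.0716 CPM. Named genes are the members, up to 3 highest and 3 lowest called genes per list and comparison, and the 2 nearest patterns per member. Jdp2, Ncoa1, Srf and, at 12 hours, Mafg, Dusp1, Dusp16 and Map3k5 were named after their values were seen. Alternatives were DESeq2 1.42.0, limma-voom (3.58.1), RLE, upper-quartile and total-count scaling, other filters, all 9 libraries in one fit, the adjusted p alone, loess offsets for length and GC content (span 0.3), a replicate block, each library left out in turn and, for levels per kb, the longest transcript as length (for their order, added after the data were seen). The fits were tested on simulated data. The result of 1 marker is not reported here.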

Additional observations from a re-analysis of the deposited data

How the results depend on the processing

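Without the fold threshold, the adjusted p alone called 1178 genes at 12 hours, 8119 at 24 hours and 8124 from 12 to 24 hours (182, 3298 and 2924 with it), and 8 members at 12 hours in place of 2. Leaving out each library in turn gave 148 to 198, 3248 to 3312 and 2871 to 3003 genes and 2 to 3, 6 to 7 and 5 to 6 members in the 3 comparisons. With the replicate number as a block, 172, 3247 and 2926 genes and 2, 7 and 6 members were called. Same-numbered libraries had correlations of -0.089 to 0.0551 between their deviations, so the numbers were not taken to pair the samples. Signs turned for Jun at 24 hours with total counts (-0.14), for Jund at 24 hours with total counts (-0.21), with the replicate block (-0.0085) and limma-voom (-0.0085) and without replicate 2 (-0.15, where leaving out single libraries gave -0.15 to 0.14), for Fosl2 from 12 to 24 hours with total counts (-0.16) and without replicate 2 of 24 hours (-0.067 to 0.16 over the libraries left out), for Jun from 12 to 24 hours with the length and GC correction (0.023, and 0.023 with the block), and for Fosb at 12 hours without replicate 1 of 12 hours (-0.0090 to 0.28 over the libraries left out). The cause was not tested. With the longest transcript as length, Jun above Maff (time 0 and 12 hours), Jund above Junb and Fosl1 above Fosl2 (24 hours) went from 3 of 3 libraries to 0 of 3, by the construction of the measure. Fosb and Batf3, with at most 294 and 48 counts, had the largest errors.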
